A study of Schizosaccharomyces pombe with 88 samples.

Results

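The genes described here are 9 regulators and effectors of mating and of the entry into meiosis in the fission yeast Schizosaccharomyces pombe, namely ste6, ste11, mei2, mei4, map1, map2, map3, mam1 and mam2. They were found by their symbols in the annotation of the array platform, where each of the 9 had 2 probes, 18 of the 9858 probes on the array and 9 of the 4815 single genes measured. Elutriation, a centrifugation that sorts cells by size, gave small G2 cells of 4 strains called WT, rad3, cds1 and chk1, whose synchronous growth was sampled from 0 to 200 min. rad3, cds1 and chk1 are mutants of the checkpoint kinases of those names, and the labels give neither their alleles nor the mating type of any strain. RNA was taken from each strain at 0 min and then at 40, 80, 120, 160 and 200 min, without and with 8 mM of hydroxyurea (HU), a drug that blocks ribonucleotide reductase and so stalls DNA replication. Each value is a log2 ratio of the Cy5-labelled sample over a Cy3-labelled common reference, asynchronous untreated WT cells in log phase, so that 0 means the level of that reference and no absolute level can be read from it.

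In fission yeast, mating and meiosis normally begin when nutrients, above all nitrogen, run out. The HMG-box factor Ste11 then switches on mating genes and mei2, cells of opposite type, P and M, exchange pheromones that act through Ras1 and a MAP kinase cascade, and the RNA-binding protein Mei2 and the forkhead factor Mei4 carry the diploid through meiosis. ste6 encodes the exchange factor that loads Ras1 with GTP in the pheromone response. The labels name no starvation for these cultures, so the values describe the genes in cycling and HU-treated cells. Each sample is the RNA of a whole culture, in which more cells with a transcript and more transcript per cell cannot be told apart.

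A set of 6 arrays labelled chk1, those of 120 min without and with HU and of 200 min with HU, was left out because they match WT arrays. Their second repeats correlated with the WT array of the same arm, time and repeat at r = 0.99995, 1 and 0.99997 over probes, and their first repeats at 0.926, 0.941 and 0.976, where the highest r of other arrays of different strains after 0 min was 0.805. This left 82 arrays in 41 conditions, with 2 array repeats each that are technical per the series text and were averaged. The mutated genes marked their strains, with a median of -2.64 for rad3 on the 22 rad3 arrays against -0.47 in WT, of -2.92 for cds1 on the cds1 arrays against 0.36, and of -1.18 for chk1 on the chk1 arrays that were kept against -0.28. In the chk1 condition with HU at 160 min the chk1 gene stood at -0.53, and in WT with HU at 160 min at -0.83, so it did not mark the strain there. The repeats of that condition were almost the same array (r = 0.9992, 77.1% of values equal). Repeats correlated at a median r of 0.701 (WT) and 0.786 (rad3), and more closely in the other strains (0.976 for cds1, 0.988 for chk1).

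The 9 genes differed widely in how much they moved. Over the 41 conditions ste6 ranged from -1.38 in chk1 at 0 min to 2.14 in chk1 with HU at 160 min, a range of 3.53 that exceeded that of 97.0% of all genes. ste11, the master regulator of sexual differentiation, ranged from -1.43 to 0.54, a range of 1.97 that exceeded that of 88.5% of genes. The ranges of the other 7 genes lay between 0.749 for map3 and 1.35 for mei4, where the median gene of the array had a range of 1.16. The SD over conditions was 0.911 for ste6 against 0.234 between array repeats, and 0.434 against 0.147 for ste11. For map3 (0.167 against 0.175), mam1 (0.171 against 0.156) and mei4 (0.336 against 0.325) it was about the size of the repeat SD, and for mam2 it was smaller (0.246 against 0.299). The repeat SD is that of single arrays, while conditions are means of 2 arrays and so carry less repeat noise. The 2 SDs are thus not like for like, and such a value does not mean that a gene varied only by noise.

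The 2 probes of a gene told the same story for some members and not for others. Across arrays they correlated at r = 0.867 for ste6 (75 arrays with both probes), 0.701 for ste11 and 0.664 for mei4. They correlated at 0.454 for mam2, 0.350 for map2 and 0.308 for map3. For mei2 (r = 0.024), mam1 (r = -0.06) and map1 (r = -0.18) they did not move together, so that a level of these genes depends on the probe. These are correlations over arrays that share strains, times and reference, and are given as a description.

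Without HU, ste6 was low at 0 and 40 min, high at 80 and 120 min and low again at 160 min. The WT repeats read -0.52 and -0.84 at the start, 0.19 and 0.38 at 80 min, 0.22 and -0.50 by 120 min and -0.70 and -0.08 by 200 min. At 40 and 160 min the WT value rests on 1 array each, with -1.18 and -1.23. Repeat 1 of WT rests on probe 2 alone at 0 min and on probe 1 alone at 120 min. The WT means of probes 1 and 2 were -1.28 and -0.46 at 0 min, and -0.26 for both at 120 min. The means of rad3 over the 6 times, in order, were -1.07, -1.12, -0.02, 0.62, -0.73 and -0.50. Both strains were low at the start and low again at 160 min. cds1 gave -0.96, -0.85, 0.26, 0.31, -1.08 and 0.19 at the same 6 times. chk1, which has no value at 120 min, gave -1.38, -1.10, 0.70, -0.92 and 0.58. In all 4 strains the values at 80 min lay above those at 0, 40 and 160 min, without overlap.

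Ordered by level, the untreated means over strains were 0.31 ± 0.30 (80 min, SD, n = 4), 0.26 ± 0.38 (120 min, n = 3), -0.03 ± 0.51 (200 min), -0.99 ± 0.21 (160 min), -1.02 ± 0.29 (0 min) and -1.06 ± 0.15 (40 min). The widest gap in this order lies between 200 and 160 min. The SDs are over strains, while each strain was sampled at each time, so they do not show whether 2 times differ. In each of the 4 strains ste6 was higher at 80 than at 200 min. Of single pairs of times only 0 and 40 min were tested, and ste6 was not called there (limma, adjusted p = 0.88). limma, fitted over all genes with strain and time as terms, called ste6 changed over time (range of the fitted time means 1.37, adjusted p = 1.5e-06, moderated F test).

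**Figure D1:**
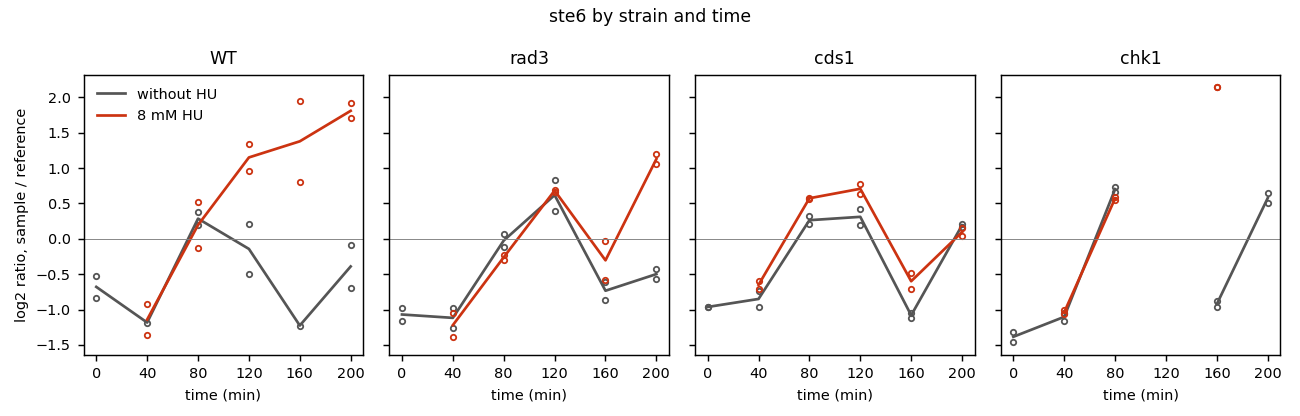
ste6 log2 ratio of sample over reference (y axis) against time in min (x axis), one panel per strain, without HU in grey and with 8 mM HU in red; circles are array repeats, lines join their means, and lines break where conditions labelled chk1 were left out. WT with HU climbs to 1.81 at 200 min while untreated WT falls to -1.23 at 160 min, and chk1 with HU at 160 min stands at 2.14.

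Of the other members, ste11, map2 and map3 were low at 0 min. ste11 read -0.14 and 0.14 on the WT repeats at 0 min and 0.39 and 0.69 at 40 min. Between these times rad3 went from -0.18 to 0.25, cds1 from -1.18 to -0.17 and chk1 from -1.43 to -0.56. It was lower at 0 min in each of the 4 strains, but the values of the 2 times overlap across strains, as cds1 and chk1 lay far below WT and rad3. limma gave -0.71 ± 0.16 (SE) for 0 minus 40 min (adjusted p = 0.00051). map2, the gene of the precursor of the P-factor pheromone, had a mean of -0.81 ± 0.26 (SD, n = 4 strains) at 0 min and of -0.27 ± 0.15 at 40 min, and its highest value at 0 min (-0.45 in WT) lay just above its lowest at 40 min (-0.48 in rad3). Its difference was -0.54 ± 0.13 (SE, adjusted p = 0.00097 by limma). map3, the gene of the M-factor receptor on P cells, had means of -0.41 ± 0.16 and -0.09 ± 0.11 (SD, n = 4), a difference of -0.32 ± 0.10 (SE, adjusted p = 0.0077 by limma). That call was lost without repeat 2 (adjusted p = 0.075), without WT (adjusted p = 0.071) and after quantile normalization (-0.15, adjusted p = 0.17).

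In all, 3 of the 9 members were lower at 0 than at 40 min and 0 were higher, where 67.5% of all units tested were called in either direction and 37.6% lower. The members' share is below this background. Over the 6 times, 3 of the 9 members were called changed (ste6, ste11 and map2), against 78.7% of all units. For map2 this rests on 0 min, without which its adjusted p was 0.77, and the call was also lost without chk1 (adjusted p = 0.074) and after quantile normalization (adjusted p = 0.20). For ste11 the untreated means from 40 to 200 min were 0.02 ± 0.48 (SD, n = 4), -0.22 ± 0.32, -0.18 ± 0.03 (n = 3), 0.24 ± 0.24 and 0.07 ± 0.13, in order of time (limma over the 6 times, adjusted p = 0.00032). Without 0 min ste11 still passed (limma, adjusted p = 0.0047), with its highest mean at 160 min. Its mean at 120 min lacks chk1, so no lowest time is named. From 80 to 120 min ste11 went from 0.09 to -0.19 in WT and from -0.03 to -0.21 in rad3. In cds1 it went from -0.29 to -0.15.

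mei2, mei4, map1, map3, mam1 and mam2 were not called over time. Nearest to the threshold were mei2 and map3 (limma, adjusted p = 0.058 and 0.060). mam1, which encodes the exporter of M-factor, lay below the reference in 41 of 41 conditions as the mean of its 2 probes. Its median was -0.43 and its highest value -0.01, in cds1 at 80 min. Probe 1 of mam1 alone lay above the reference in several conditions, with 0.48 in cds1 at 80 min, where probe 2 gave -0.49. mam2, the gene of the P-factor receptor on M cells, also had a mean of its probes below the reference in 41 of 41, with a median of -0.62. map1, which encodes the MADS-box partner for P-cell genes, had untreated time means between -0.58 and -0.44. mei4 lay below the reference in 39 of 41 conditions, with a median of -0.42. Of the other cell type markers, the P-cell gene map4 had a median of -0.51 over the 41 conditions, the M-factor genes mfm1, mfm2 and mfm3 had -0.22, -0.21 and -0.32, and the M-cell gene mam3 had -0.07. The meiosis markers mei3, spo6 and mes1 had -0.34, -0.64 and -0.03. As the labels give no mating type, which cell types the cultures held was not read from these ratios.

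**Figure D2:**
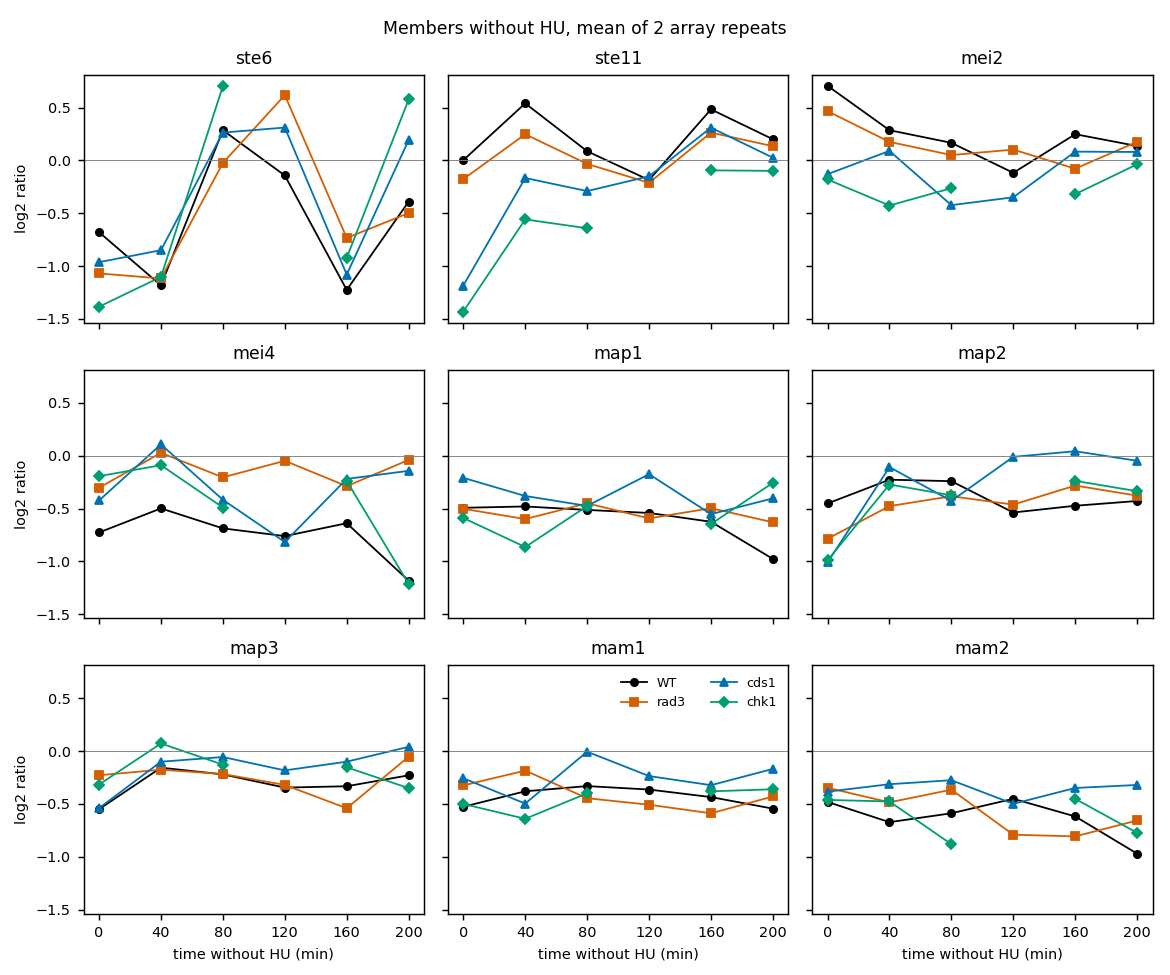
Mean log2 ratio of the array repeats (y axis) against time without HU in min (x axis) for each of the 9 members, one line per strain, broken where chk1 at 120 min was left out. ste6 is higher at 80 min than at 160 min in every strain, and ste11 starts at -1.18 in cds1 and -1.43 in chk1.

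The mutants were next set against WT without HU, as the mean difference over matched times with time as a term. This comparison has 1 culture per strain, and strain cannot be told apart from culture or from the set of arrays, whose repeats were much closer in cds1 and chk1 than in WT and rad3. ste11 was lower than WT at 5 of 6 times in cds1 and at 5 of 5 in chk1. The differences in chk1 ran from -1.43 to -0.30. limma gave -0.43 ± 0.13 for cds1 (adjusted p = 0.013, lost without repeat 2 at 0.24) and -0.79 ± 0.14 for chk1 (adjusted p = 0.0013). For chk1 the 2 ste11 probes gave -0.69 and -0.96, and for cds1 -0.12 and -0.74. ste11 in rad3 was lower at 6 of 6 times by 0.03 to 0.29 and was not called.

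mei2 was lower than WT at 6 of 6 times in cds1 and at 5 of 5 in chk1. At 0 min it stood at 0.71 in WT and 0.47 in rad3, against -0.13 in cds1 and -0.18 in chk1. The mean difference was -0.35 ± 0.10 in cds1 (limma, adjusted p = 0.010) and -0.53 ± 0.11 in chk1 (adjusted p = 0.0031). Both were lost without repeat 2 (adjusted p = 0.50 and 0.068), and that in cds1 also without 0 min (adjusted p = 0.052). The mei2 probes differed, with -0.95 and -0.16 for chk1 minus WT. Probe 1 was lower in chk1 at 5 of 5 times, and probe 2 was lower at 3 and higher at 2.

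mei4 ran the other way. It was higher than WT at 6 of 6 times in rad3, by 0.35 to 1.14, and at 5 of 6 times in cds1. The differences were 0.61 ± 0.14 in rad3 (limma, adjusted p = 0.013) and 0.43 ± 0.14 in cds1 (adjusted p = 0.019), and both mei4 probes were higher on average in each mutant. The WT repeats of mei4 lay far apart, at -0.25 and -1.21 at 0 min and 0.03 and -1.02 at 40 min, and its WT value at 80 min rests on repeat 2 alone. At 40 min repeat 1 holds probe 2 alone, and the WT means of probes 1 and 2 were -1.415 and -0.30. The 2 repeats at 40 min thus do not cover the same probes. Without repeat 2 neither call held (0.28 with adjusted p = 0.33 in rad3, and 0.24 with adjusted p = 0.49 in cds1), and that in cds1 was also lost after quantile normalization (0.30, adjusted p = 0.11). mam2 was 0.27 ± 0.09 higher in cds1 (limma, adjusted p = 0.027), a call lost without repeat 2 (adjusted p = 0.78) and after quantile normalization (adjusted p = 0.19). ste6 was not called in any mutant, with mutant-minus-WT differences of 0.09 ± 0.17 (rad3), 0.20 ± 0.17 (cds1) and 0.27 ± 0.18 (chk1). Its probes 1 and 2 differed here, with 0.30 and 0.07 in rad3, 0.57 and -0.07 in cds1 and 0.56 and -0.06 in chk1.

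The members called were 1 of 9 in rad3 (9.75% of all units), 4 of 9 in cds1 (40%), and 2 of 9 in chk1 (16.2%), so that the share in cds1 is near the background. With repeat 1 or 2 left out the count ran from 1 to 5 in rad3 and from 0 to 6 in cds1. No pattern of one direction ran through the members: of those called in cds1, ste11 and mei2 were lower (20.2% of units) and mei4 and mam2 higher (19.8%), while the 1 called in rad3 was higher (3.41% of units) and the 2 in chk1 lower (8.22%).

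To measure the effect of HU, the untreated value of a strain at a time was subtracted from its HU value, and these differences were averaged in the pairs WT with chk1 and rad3 with cds1. This pairing, and the HU rise of ste6, were known from an earlier look at the same values, so the tests on them describe these samples and are not independent evidence. At 120 and 200 min WT stands alone in its pair, and the spread behind its tests is that of other strains and times.

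At 40 and 80 min no HU difference of a member passed the test. limma called 0 of 9 members and 0% of units in either pair at either time, with 291 and 309 units in WT and chk1 and 560 and 212 in rad3 and cds1 at an unadjusted p under 0.05. ste6 with HU stood at -0.92 and -1.36 on the WT repeats at 40 min and at -0.12 and 0.51 at 80 min. The HU differences of ste6 over the 4 strains ran from -0.24 to 0.31 at these times.

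From 120 min on, ste6 in WT with HU departed from its untreated course. With HU the WT repeats read 1.35 and 0.96 at 120 min, 1.95 and 0.81 at 160 min and 1.70 and 1.92 at 200 min. In chk1 with HU ste6 stood at 2.14 at 160 min, against -0.92 without. All these repeats lie above every untreated value of ste6 in WT and chk1. The HU difference at 120 min was 1.29 ± 0.37 (SE) in WT and did not pass limma's test (adjusted p = 0.26, unadjusted p = 0.0034), where 0.0993% of units passed. It passed when each array was a sample and the repeat number a block (adjusted p = 0.011), a fit that counts technical repeats as samples and so overstates n. At 160 min ste6 rose by 2.83 ± 0.26 in WT and chk1, a 7.13-fold higher ratio (limma, adjusted p = 2.6e-06), with 2.60 in WT and 3.06 in chk1. At 200 min it rose by 2.20 ± 0.37 in WT, 4.60-fold (adjusted p = 0.0016). Both probes showed the rise, with 3.16 and 2.51 at 160 min and 2.23 and 2.17 at 200 min. The untreated WT value at 160 min rests on 1 array, that of repeat 2, without which WT has no difference there. The call at 160 min held without WT, without chk1 and without either repeat. Without WT or without repeat 2 it rests on chk1 alone. With HU at 160 min the chk1 gene did not mark that strain, and its repeats were almost the same array.

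In rad3 and cds1 with HU, ste6 was again high at 120 min and low at 160 min. From 40 to 200 min with HU, rad3 gave -1.22, -0.26, 0.68, -0.30 and 1.13. cds1 with HU gave -0.65, 0.57, 0.71, -0.60 and 0.10 at the same 5 times. Both mutants were low at 160 min, below each repeat of WT and chk1 with HU. The HU difference at 160 min was 0.43 in rad3 and 0.48 in cds1, a mean of 0.46 ± 0.26 (limma, adjusted p = 0.19). The difference between the pairs at 160 min was itself tested and came to -2.38 ± 0.37 (adjusted p = 0.0018), with 4.82% of units called, 2.02% lower, and ste6 was the 1 member of 9 that passed. It was lost without chk1 (-2.15, adjusted p = 0.095), which leaves WT alone in its pair.

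At 200 min the mutants parted. The ste6 repeats of rad3 were 1.06 and 1.19 with HU against -0.43 and -0.57 without, and those of cds1 were 0.04 and 0.15 against 0.21 and 0.17. The HU difference was thus 1.63 in rad3 and -0.10 in cds1. Their mean of 0.76 ± 0.26 passed limma's test (adjusted p = 0.033), but it describes neither strain, and the call was lost without repeat 1 (adjusted p = 0.050), without repeat 2 (0.086) and after quantile normalization (0.10). The difference between the pairs at 200 min, -1.44 ± 0.45, did not pass (adjusted p = 0.14, 1.59% of units called), and it passed without rad3 (-2.30, adjusted p = 0.0012). At 40, 80 and 120 min the difference between the pairs passed for 0 of 9 members, and for 0.0198%, 0% and 0% of units.

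**Figure D3:**
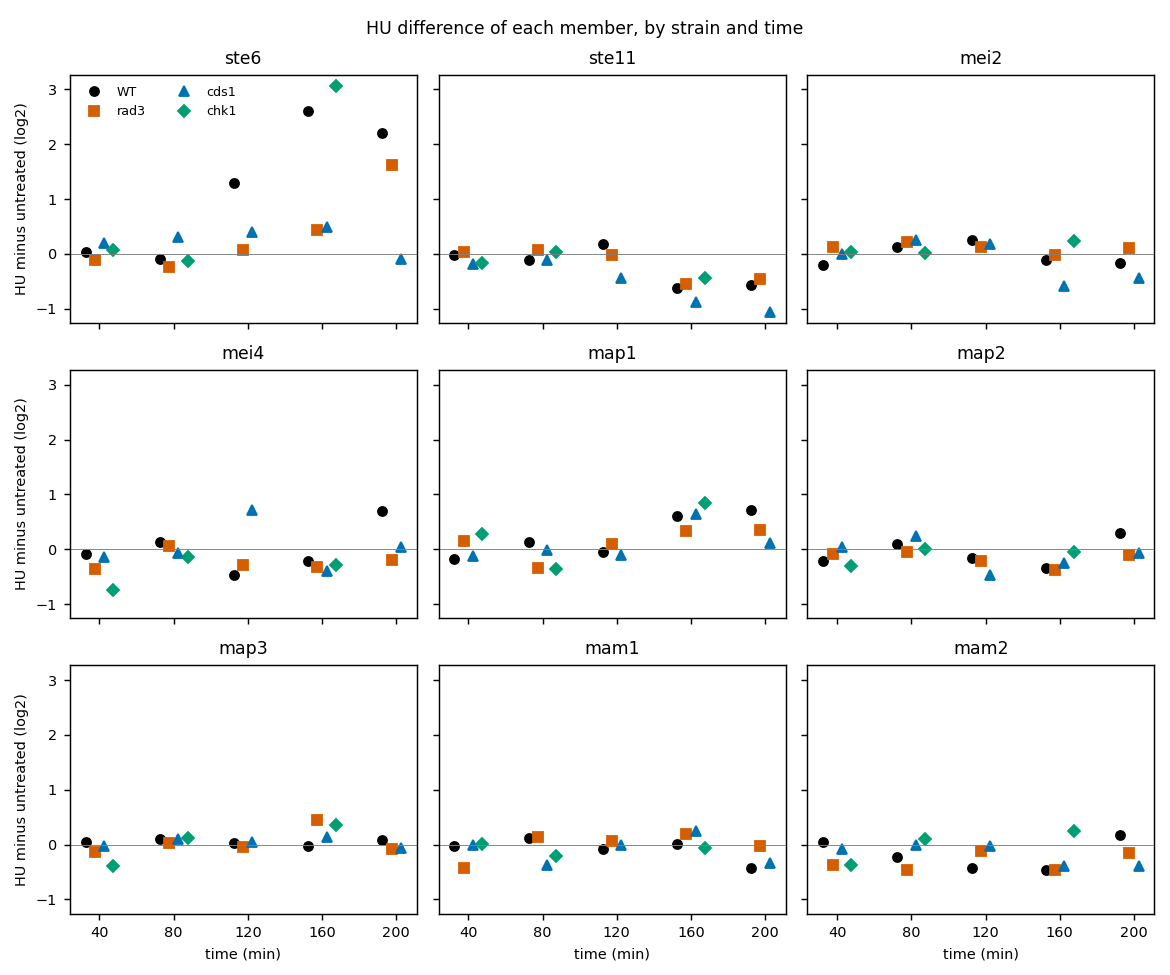
HU minus untreated log2 difference (y axis) at each time in min (x axis) for each of the 9 members, one symbol per strain, set slightly apart. ste6 in WT and chk1 stands at 2.60 and 3.06 at 160 min, while every other member stays between -1.1 and 1.

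ste11, whose product switches on mating genes, went the other way. At 160 min its WT repeats were -0.29 and 0.00 with HU against 0.18 and 0.79 without, and in cds1 -0.59 and -0.54 against 0.31 on both. ste11 was lower with HU at 160 min in each of the 4 strains, by 0.63 (WT), 0.55 (rad3), 0.88 (cds1) and 0.45 (chk1). ste11 fell by 0.54 ± 0.14 in WT and chk1 (limma, adjusted p = 0.013) and by 0.72 ± 0.14 in rad3 and cds1 (adjusted p = 0.0011). The first of these calls needs both strains, since the adjusted p was 0.21 without WT and 0.12 without chk1. At 200 min ste11 fell by 0.75 ± 0.14 in rad3 and cds1 (adjusted p = 0.00088, and 0.058 without cds1) and was 0.57 ± 0.20 lower in WT (adjusted p = 0.077, not called). Both probes gave lower values at 160 and 200 min in both pairs, from -0.48 to -0.86. The difference between the pairs was not called for ste11 at any time (at 160 min -0.18 ± 0.20, adjusted p = 0.66).

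map1 was higher with HU at 160 min in each of the 4 strains. It read -0.13 and 0.11 on the WT repeats with HU against -0.76 and -0.49 without, and 0.20 against -0.65 in chk1. map1 rose by 0.73 ± 0.14 in WT and chk1 (limma, adjusted p = 0.0023) and by 0.49 ± 0.14 in rad3 and cds1 (adjusted p = 0.016) at 160 min, and by 0.72 ± 0.20 in WT at 200 min (adjusted p = 0.034). Each of these calls was lost under an alternative. That in WT and chk1 at 160 min was lost without chk1 (adjusted p = 0.061) and that in rad3 and cds1 without cds1 (adjusted p = 0.31). That at 200 min was lost without repeat 2 (adjusted p = 0.18), after quantile normalization (adjusted p = 0.060) and with the left-out arrays put back (0.32 log2, adjusted p = 0.13). The rise was mostly that of 1 probe. Probe 2 gave 1.25 and 0.80 in the pairs at 160 min, and probe 1 gave 0.22 and 0.18. In WT at 200 min probe 2 gave 1.00 and probe 1 gave 0.44.

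In rad3 and cds1, map2 and mam2 were lower with HU at 160 min. map2 fell by 0.32 ± 0.10 (limma, adjusted p = 0.027) and mam2 by 0.43 ± 0.16 (adjusted p = 0.046). The map2 call was lost without either repeat (adjusted p = 0.054 and 0.099) and without either strain, and the mam2 call without repeat 2 (adjusted p = 0.40), after quantile normalization (0.13) and without either strain. The mam2 probes gave -0.14 and -0.72. mei2 was at -0.30 ± 0.14 in rad3 and cds1 (adjusted p = 0.11), with -0.02 in rad3 and -0.59 in cds1. mei4, map3 and mam1 were not called with HU in either pair at any time.

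Counted together at 160 min, 2 members rose and 1 fell in WT and chk1, where 20% of units were called, 9.73% higher and 10.3% lower. In rad3 and cds1 1 rose and 3 fell, where 38% of units were called, 20.9% higher and 17.1% lower. At 200 min 2 of 9 rose in WT (11.2% of units called, 5.68% higher), and in rad3 and cds1 1 rose and 1 fell (35.7%, with 16.9% higher and 18.8% lower). At 120 min 0 of 9 were called in either pair (0.0993% and 0.556% of units). The median HU difference over the members at 160 min was -0.03 in WT and chk1 and -0.30 in rad3 and cds1, beside -0.01 and 0.02 over all units. In WT and chk1 at 160 min ste6 had the largest HU difference of the 9 members (2.83), followed by map1 (0.73).

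The genes whose course was most like that of ste6 over the 41 conditions were cdt2 (Pearson r = 0.952), cdc18 (0.937), ams2 (0.936), mrc1 (0.934), tos4 (0.933), nrm1 (0.925), cdc22 (0.925) and mik1 (0.923). cdc18 encodes a licensing factor for replication, cdc22 the large subunit of ribonucleotide reductase, and ams2 a GATA factor for histone genes. Over the 23 conditions without HU the same 8 genes correlated with ste6 at 0.886 to 0.933. The conditions share strains, arrays and the cell cycle itself, and these correlations are a description. With HU at 160 min these 8 genes were 1.65 (nrm1) to 4.63 (cdc22) higher in WT and chk1 and 0.13 (nrm1) to 0.73 (cdc22) higher in rad3 and cds1, where ste6 was 2.83 and 0.46 higher.

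Among the members themselves correlations were lower. ste6 correlated at 0.44 with map1 and at -0.26 to 0.23 with the other 7 members. Over the 36 pairs of members r ran from -0.38 to 0.57 with a median of 0.03, and the highest were ste11 with mei2 (0.57) and map2 with map3 (0.54). Of genes with a name, those most like the others were toe3 for ste11 (r = 0.756), zip1 for mei2 (0.714), alx1 for mei4 (0.674), ppp16 for map1 (0.668), mat3-Mi for map2 (0.730), mis4 for map3 (0.779), snp27 for mam1 (0.615) and vma6 for mam2 (0.762).

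Other genes of mating and meiosis were read from 4 lists. Unlike those of the members, their calls were not set against the alternatives, and no values by probe or by strain are given. A mean of a pair may thus hide a difference between its strains. In WT and chk1 at 160 min, 3 of 12 genes of the pheromone signal cascade rose and 1 fell, where 20% of all units were called, 9.73% higher and 10.3% lower. spk1, the MAP kinase of the cascade, rose by 0.77 ± 0.19, gpa1, the G protein alpha subunit that pheromone receptors use, by 0.53 ± 0.11, and byr1, the MAP kinase kinase, by 0.44 ± 0.12 (limma, adjusted p = 0.0093, 0.0037 and 0.019). Of 18 regulators of ste11 and of meiotic commitment 1 rose and 3 fell, a share near that of all units. Those that fell were atf1, a bZIP factor of the stress pathway, which fell by 0.77 ± 0.11 (adjusted p = 0.00018), wis1, the kinase upstream of the stress MAP kinase, by 0.75 ± 0.11 (0.00024), and git3, a glucose receptor, by 0.46 ± 0.11 (0.0069). atf1 had already fallen at 120 min, by 1.25 ± 0.16 in WT and by 0.77 ± 0.11 in rad3 and cds1 (adjusted p = 0.0058 and 0.0051). Of 12 pheromone and cell surface genes and of 14 genes of meiotic recombination and division, 0 were called in WT and chk1 at 160 min.

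In rad3 and cds1 at 160 min, 5 of the 12 pheromone and cell surface genes rose and 1 fell, where 38% of all units were called, 20.9% higher and 17.1% lower. fus1, a formin for cell fusion, rose by 0.93 ± 0.17, mam3, an agglutinin of M cells, by 0.67 ± 0.09, and sxa2, a peptidase that degrades P-factor, by 0.66 ± 0.15 (limma, adjusted p = 0.00067, 5.2e-05 and 0.0026). In the cascade 3 of 12 rose and 1 fell, led by byr2, the MAP kinase kinase kinase, at 0.91 ± 0.15, with gpa1 at 0.50 ± 0.11 and scd2, a scaffold for Cdc42, at 0.50 ± 0.14. Of the regulators 2 of 18 rose and 6 fell, with wis1 at -1.12 ± 0.11, atf1 at -0.64 ± 0.11 and cgs1, the regulatory subunit of protein kinase A, at 0.46 ± 0.10. The shares called in the cascade and among the regulators are near that of all units. Of the meiotic genes 0 of 14 were called. The list medians in rad3 and cds1 were 0.25 for pheromone and cell surface genes, 0.17 for the cascade, -0.06 for the regulators and 0.05 for the meiotic genes, beside 0.02 over all units.

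The difference between the pairs was called for mam3 at 160 min (0.72 ± 0.13, limma adjusted p = 0.0050) and 200 min (0.74 ± 0.16, adjusted p = 0.030), and for cgs1 at 160 min (0.61 ± 0.14, adjusted p = 0.018), all 3 higher in rad3 and cds1. At 200 min hop1, a meiotic chromosome axis gene, rose by 1.24 ± 0.23 in WT (adjusted p = 0.0032), and its difference between the pairs was -1.22 ± 0.29 (adjusted p = 0.046). In WT at 200 min git3 fell by 0.60 ± 0.15, mmi1, which removes meiotic transcripts from growing cells, by 0.58 ± 0.14, and pka1, the catalytic subunit of protein kinase A, rose by 0.50 ± 0.14. In WT at 200 min 0 of 12 pheromone and cell surface genes and 0 of 12 cascade genes were called, where 11.2% of all units were. The difference between the pairs was called for 4.82% of all units at 160 min and for 1.59% at 200 min.

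In rad3 and cds1 at 200 min 4 of the 12 pheromone and cell surface genes rose and 1 fell, where 35.7% of all units were called, 16.9% higher and 18.8% lower. The M-factor genes went apart, with mfm2 at -0.98 ± 0.18 and mfm3 at 0.63 ± 0.15, and fus1 stood at 0.80 ± 0.17 (limma, adjusted p = 0.00073, 0.0048 and 0.0023). byr2 rose by 0.56 ± 0.15, gpa1 by 0.38 ± 0.11 and ste4, an adaptor of Byr2, fell by 0.42 ± 0.11. Among the regulators wis1 fell by 0.61 ± 0.11 and gpa2, the G protein alpha subunit of glucose sensing, by 0.59 ± 0.13, and rst2, a zinc finger activator of ste11, rose by 0.46 ± 0.10. Of the meiotic genes 1 of 14 was called, meu13, a recombination gene, which fell by 0.40 ± 0.12. Called genes thus lay on both sides in these lists, and none reached the size of the ste6 response in WT and chk1.

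**Figure D4:**
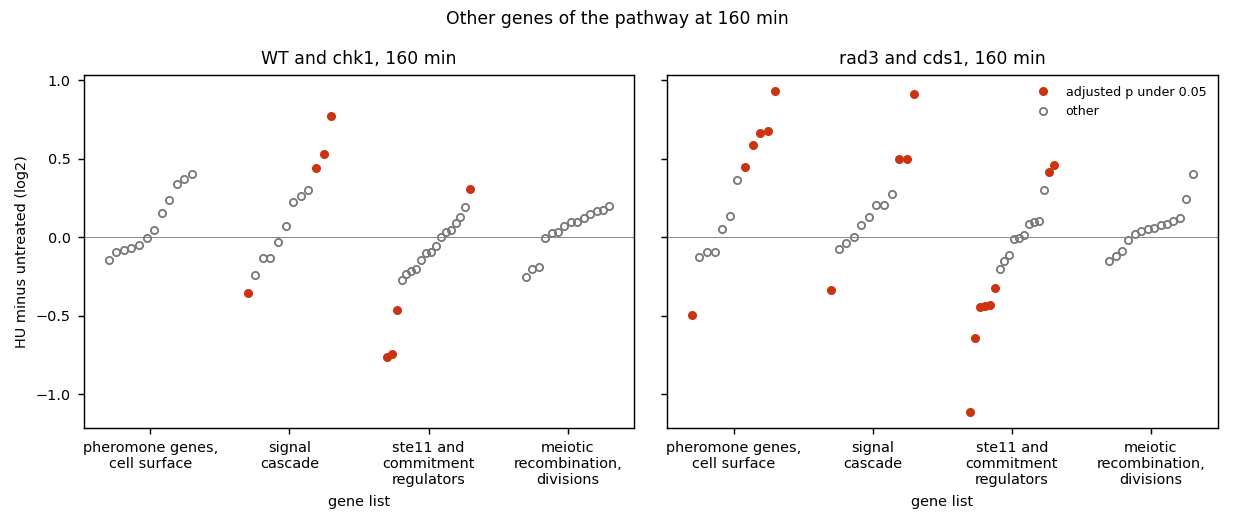
HU minus untreated log2 difference at 160 min (y axis) for each gene of 4 pathway lists (x axis), WT and chk1 on the left and rad3 and cds1 on the right, filled red where limma's adjusted p is under 0.05. The genes lie between -1.12 (wis1) and 0.93 (fus1) where called, with calls among pheromone and cell surface genes in rad3 and cds1.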

How the data were processed

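Total RNA of 88 samples was measured on two-colour arrays, and the authors deposited 1 table of log2 ratios, sample (Cy5) over reference (Cy3) per the labels. The scale follows from the values, since 2 to the power of 99.7% of them is a whole number of thousandths, with a tolerance of 0.01. How the authors corrected background, normalized arrays and filtered spots is not given in the sources used here. Probes with values on fewer than 80% of arrays (35) were left out, probes were averaged per gene by the platform's symbols, 9582 of 9858 updated through a RefSeq gene table (ASM294v3, names only), and array repeats per condition, giving 5038 units. rec11 was not analysed here. Of the arrays used, 1 had a median beyond 0.1 (-0.15). Arrays have no depth; how many there are sets the precision.

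limma 3.58.1 in R 4.3.3 (lmFit, eBayes) was fitted over all units with Benjamini-Hochberg adjustment, and an adjusted p under 0.05 was called. The fit over 23 untreated conditions had 14 residual degrees of freedom and that over 18 HU differences had 8. The code was tested on simulated data. No label names a second culture of a strain, so the p-values reflect only how these samples vary, which may be technical. Named genes are the members, up to 3 called genes of largest change per list and HU comparison, the 8 genes most like ste6, and the 2 most like each other member, of which 1 is printed. map4 and the other cell type markers are named from their list. The members, lists, pairs of strains and tests were chosen with earlier results of these data known. Alternatives were each repeat left out, a replicate block, quantile normalization, median centring, trend and robust eBayes, no filter, the 6 arrays put back, and 0 min or each strain left out.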

Additional observations from a re-analysis of the deposited data

Results flagged for a closer look

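At 160 min without HU, mei4 in WT stood apart from the other strains. It was at -0.64 (repeats -0.49 and -0.79), against -0.29 (rad3), -0.22 (cds1) and -0.24 (chk1). The gap to the nearest strain, as a share of the whole range, was above Dixon's 95% critical value for 4 values. Of 45 groups of 4 strains tested 1 stood out in this way, where chance alone gives about 1 in 20.

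The HU effect on ste6 at 160 min differed between the pairs of strains by -2.38 ± 0.37 (limma, adjusted p = 0.0018 over all units), lower in rad3 and cds1 than in WT and chk1. The 4 HU differences were 2.60 and 3.06 (WT and chk1) and 0.43 and 0.48 (rad3 and cds1). The chk1 gene does not mark the strain in the chk1 condition with HU, and the untreated WT value rests on 1 array. Their part in the result was not tested beyond leaving out each strain and repeat, where the difference ran from -2.61 without WT to -2.15 without chk1.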

How the results depend on the processing

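Of 1791 results of single members under the alternatives, 1712 kept their direction and their side of the threshold or were not called in either (139 of these were uncalled and of opposite sign), 35 lost their call, 42 gained one and 2 reversed. The reversed ones were mam1 in rad3 minus WT without repeat 2 (-0.21, adjusted p = 0.040; 0.25 without repeat 1 and 0.02, not called, with both) and ste6 in rad3 and cds1 at 200 min without rad3 (-0.10). The cause was not tested. Without repeat 2 the member calls over 20 comparisons fell from 25 to 16, and without repeat 1 they were 32.

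The counts of called members that moved by over 1.5 times were these. Over time, 3 became 5 with the replicate block, with quantile normalization and without rad3. Leaving out a repeat gave 1 to 5 in rad3 minus WT, 0 to 6 in cds1 minus WT and 1 to 3 in chk1 minus WT, and quantile normalization gave 2 in cds1 minus WT. For HU in WT at 120 min 0 became 1 with the block and with the 6 arrays put back, and in rad3 and cds1 at 120 min 1 with the block. The 6 arrays match WT arrays, so with them put back WT values stand in for a second strain and n is overstated. At 160 min, WT and chk1 gave 1 without chk1, rad3 and cds1 gave 1 without cds1, and the difference between the pairs gave 0 without chk1. At 200 min in WT, 2 became 5 with the block, 1 with quantile normalization and 4 with the arrays put back, and 1 to 2 with a repeat left out. In rad3 and cds1 at 200 min it was 1 with quantile normalization, without rad3, without cds1 and without either repeat. The difference between the pairs at 200 min gave 1 with the block, with the arrays put back and without rad3. The mean level of mam1 over conditions was -0.22 with probe 1 and -0.60 with probe 2.

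Differences between repeats 1 and 2 correlated over units with a median r of 0.27 over 193 pairs of conditions of the same strain. Of these, 138 exceeded 0.1 and the lowest was -0.08. Over 627 pairs of different strains the median was -0.01, the range was -0.82 to 0.30, and 30 exceeded 0.1. The repeat numbers thus go together within a strain in most pairs. Between strains they do so in few pairs and run strongly opposite in some. No label says what a number marks. The replicate block, with arrays as samples, raised the member calls over 20 comparisons from 25 to 38. No depth exists for arrays, and ratios without scanner intensities do not show which probes lay above background.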
